A study of Mus musculus with 2 samples.

Results

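The 4 Hox clusters of the mouse and the noncoding RNAs transcribed within or beside them were followed in embryonic limb by total RNA sequencing. Members were all annotated genes whose symbol begins with Hoxa, Hoxb, Hoxc or Hoxd, plus Hottip, Hotair and Hotairm1, and values were not used to choose them. The rule gave 48 of 43346 mouse genes, which were 39 protein-coding Hox genes and 9 noncoding genes. HoxA holds 11 of the coding genes on the minus strand of chromosome 6, HoxB 10 on chromosome 11 (96194316 to 96368256, plus strand), HoxC 9 on chromosome 15 (102921103 to 103036852, plus strand) and HoxD 9 on chromosome 2 (74668310 to 74765142, plus strand), all on GRCm38.

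Hox genes encode homeodomain transcription factors, and their order along each cluster matches the order in which they are switched on and the level of the body axis at which they act. In the limb the genes at the 5′ ends of HoxA and HoxD specify the upper arm and thigh, then the forearm and lower leg, and finally the hand and foot, with group 13 acting most distally. Genes at the 3′ ends, of low group number, act mainly in the hindbrain, neck and trunk. Several noncoding RNAs are transcribed from the opposite strand of the clusters, and some of them are known to affect the coding genes beside them.

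The samples were limbs of healthy B6NCrl embryos at 15.5 days, of both sexes pooled, with no treatment and no engineered allele given in the labels. Replicate 1 was a pool from 78 embryos and replicate 2 a separate pool from 62 embryos, so n = 2 throughout. Which limb pair each pool held, fore or hind, is not stated. RNA longer than 200 nt was kept and 10 ng went into each library, and since whole tissue was sequenced, fewer cells of a type and less RNA per cell cannot be told apart in any value given here. The design has 1 group, so no conditions were compared and no test was made, and the difference between the pools rests on 1 library each.

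Expected counts, which are estimated read counts that need not be whole, summed to 35104685 in replicate 1 and 41757268 in replicate 2, of which 13946 and 19846 fell on the 48 members. Levels are given in TPM, which scales reads to the length of each transcript and the size of the library. The limb label was met by the limb mesenchyme markers, of which 8 of 8 reached 1 TPM in both libraries, against 34.6% of all mouse genes. In contrast, 6 of 6 markers of neural tube and brain stayed under 1 TPM. Of the other lists, 2 of 6 markers of trunk organs and 1 of 3 kidney markers also reached 1 TPM in both libraries. No member was at 0 in either library, but 11 members had fewer than 20 counts in both, so their levels are known only roughly. Across the 48 members the libraries gave Pearson's r = 0.982 on log2(TPM + 0.1) and Spearman's rho = 0.972, a description across genes that are not independent replicates.

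Hox RNA in the limb came mainly from the 5′ genes of HoxA and HoxD. Coding Hox genes summed to 253 TPM in replicate 1, against 292 TPM in replicate 2. HoxA held 59.3% ± 1.41 of this sum (SD, n = 2) and HoxD 28.3% ± 0.563, whereas HoxC held 8.89% ± 1.06 and HoxB 3.47% ± 0.909. Groups 9 to 13 gave 85.1% ± 2.996 of the sum over all clusters, with 91.1% ± 2.78 in HoxD, 88.8% ± 1.98 in HoxA, 70.0% ± 0.0674 in HoxC and 11.6% ± 3.63 in HoxB. A level of at least 1 TPM in both libraries was reached by 23 of 39 coding genes, against 34.6% of all mouse genes, and 14 were under it in both. By cluster these were 7 of 11 in HoxA, 2 of 10 in HoxB, 8 of 9 in HoxC and 6 of 9 in HoxD. At least 10 TPM in both was reached by 7 of 39 coding genes, against 21.3% of all mouse genes. Of these 7, 4 were in HoxA and 3 in HoxD.

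**Figure D1:**
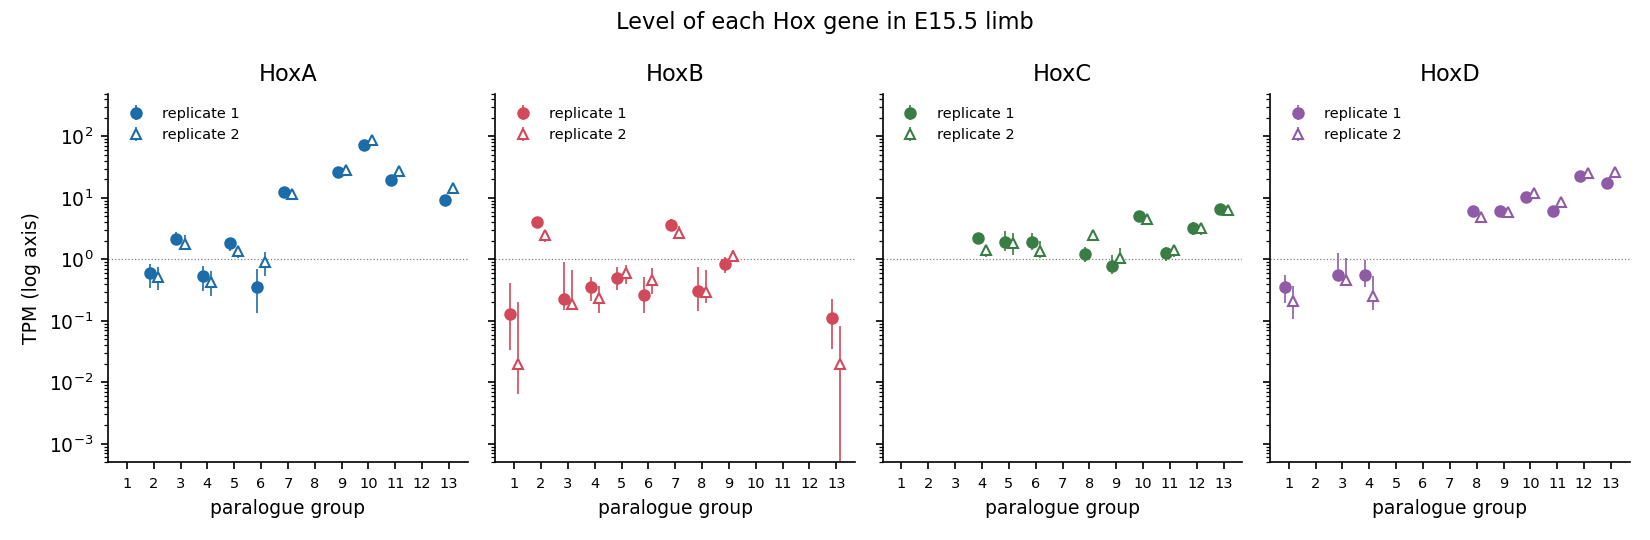
TPM of the coding Hox genes named in the text on a log axis by paralogue group and cluster, with filled circles for replicate 1, open triangles for replicate 2, bars for the deposited interval of each value and a dotted line at 1 TPM. Levels are highest in the 5′ groups of HoxA and HoxD, reach no more than 6.66 TPM in HoxC, and are mostly under 1 TPM in HoxB. The lower bar of Hoxb13 in replicate 2 ends close to the foot of the axis.

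In HoxA the levels were highest in groups 9 to 11. Hoxa10 (ENSMUSG00000000938.11, chromosome 6, 52231197 to 52240854), which acts in the upper limb segment, had 73.4 TPM in replicate 1, against 88.5 TPM in replicate 2, with deposited intervals of 68.9 to 74.5 and 84.1 to 89.7. It was the highest coding member in both libraries and alone held 29.7% ± 0.912 of coding Hox TPM. Hoxa9 (ENSMUSG00000038227.11), which cooperates with its group in the upper limb and is best known in blood progenitors, had 26.2 TPM in replicate 1, against 28.2 TPM in replicate 2. Hoxa11 (ENSMUSG00000038210.10, chromosome 6, 52242106 to 52245810), needed with Hoxd11 for the forearm, had 19.9 TPM in replicate 1, against 27.7 TPM in replicate 2. Hoxa13 (ENSMUSG00000038203.14, chromosome 6, 52257694 to 52260880), needed for digits, had 9.27 TPM in replicate 1, against 14.3 TPM in replicate 2. For Hoxa10, Hoxa11 and Hoxa13 the intervals of the libraries did not meet, and replicate 2 was the higher.

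The 3′ part of HoxA was low apart from Hoxa7, a trunk gene, which had 12.5 TPM in replicate 1, against 11.8 TPM in replicate 2. Hoxa3, known for the thymus and the third pharyngeal arch, had 2.12 TPM in replicate 1, against 1.79 TPM in replicate 2. Hoxa5, known for the lung and the neck and shoulder skeleton, had 1.82 TPM in replicate 1, against 1.36 TPM in replicate 2. Hoxa2, a gene of the hindbrain and the second pharyngeal arch (0.60 TPM in replicate 1, against 0.51 TPM in replicate 2), and Hoxa4 (0.53 and 0.43 TPM) stayed under 1 TPM in both libraries. Hoxa6 had 0.35 TPM in replicate 1, against 0.90 TPM in replicate 2, on 6 and 19 counts, and its intervals overlapped. From Hoxa6 at a mean of 0.625 TPM to its neighbour Hoxa7 at 12.2 TPM the level changed abruptly, and the mean stayed above 11 TPM through Hoxa13.

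HoxD was also highest at its 5′ end, with a lower TPM at Hoxd11 than on either side of it. Hoxd13 (ENSMUSG00000001819.4, chromosome 2, 74668310 to 74671599), whose human mutations fuse and duplicate digits, had 17.6 TPM in replicate 1, against 26.6 TPM in replicate 2. Hoxd12 (ENSMUSG00000001823.5, chromosome 2, 74675013 to 74677705), a partner of Hoxd13 in the digits, had 22.8 TPM in replicate 1, against 25.2 TPM in replicate 2. Hoxd11, the partner of Hoxa11, had 6.04 TPM in replicate 1, against 8.49 TPM in replicate 2. Hoxd10, known for hindlimb motor neurons as well as limb skeleton, had 10.5 TPM in replicate 1, against 11.9 TPM in replicate 2. With counts not divided by length, Hoxd11 was below Hoxd10 in replicate 1 (352 against 401 counts) but above it in replicate 2 (575 against 557). The lower level of Hoxd11 beside Hoxd10 therefore depends on the division by length. Exons of Hoxd10 and Hoxd11 also share bases with the processed transcript Gm28309, and whether this bears on their levels was not tested. Hoxd9 had 6.03 TPM in replicate 1, against 5.82 TPM in replicate 2, and Hoxd8 had 6.20 TPM in replicate 1, against 4.89 TPM in replicate 2. The 3′ genes Hoxd4 (0.56 TPM in replicate 1, against 0.25 TPM in replicate 2), Hoxd3 (0.55 and 0.46 TPM) and Hoxd1, known in pain-sensing neurons (0.36 and 0.21 TPM), were all under 1 TPM. The order of Hoxa9, Hoxd12, Hoxa11 and Hoxd13 differed between the libraries, so their ranking below Hoxa10 is not settled by these data.

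HoxC was expressed weakly, with its maximum at the 5′ end. Hoxc13, known for hair and nails, had 6.66 TPM in replicate 1, against 6.34 TPM in replicate 2. Hoxc12 had 3.27 TPM in replicate 1, against 3.23 TPM in replicate 2 and was nearly equal in the libraries. Hoxc10, a gene of hindlimb level, had 5.08 TPM in replicate 1, against 4.58 TPM in replicate 2, and its neighbour Hoxc11 had 1.26 and 1.41 TPM. Hoxc9, which specifies thoracic motor columns, had 0.79 TPM in replicate 1, against 1.05 TPM in replicate 2. Hoxc8, a gene of the thoracic skeleton and of motor neurons for the forelimb, had 1.23 TPM in replicate 1, against 2.47 TPM in replicate 2, on 51 and 125 counts. The more anterior genes were close to one another, with Hoxc6 at 1.93 TPM in replicate 1, against 1.39 TPM in replicate 2, Hoxc5 at 1.89 and 1.85 TPM and Hoxc4 at 2.24 and 1.42 TPM. Exons of Hoxc5 and Hoxc10 share 166 bases on the same strand.

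HoxB was low throughout, and Hoxb2 and Hoxb7 alone reached 1 TPM in both libraries. Hoxb2, a hindbrain gene, had 4.08 TPM in replicate 1, against 2.53 TPM in replicate 2, on 155 and 117 counts. Hoxb7 had 3.59 TPM in replicate 1, against 2.74 TPM in replicate 2. Hoxb9 had 0.83 TPM in replicate 1, against 1.15 TPM in replicate 2, on either side of 1 TPM. The other 7 HoxB genes were under 1 TPM in both libraries. Among them, Hoxb5, which helps to set the position of the forelimb, had 0.50 TPM in replicate 1, against 0.60 TPM in replicate 2, and Hoxb6 had 0.26 and 0.46 TPM. Hoxb4, known in blood stem cells, had 0.35 TPM in replicate 1, against 0.24 TPM in replicate 2, Hoxb8 had 0.31 and 0.30 TPM, and Hoxb3 had 0.23 and 0.19 TPM. The hindbrain gene Hoxb1 rested on 3 counts in replicate 1 and 1 count in replicate 2, and Hoxb13, a gene of the tail and prostate, on 5 counts and 1 count. Such counts are too few to give a level for either gene.

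The clusters also hold the genes of the miR-196 and miR-10 families, which repress Hox mRNAs. Mature miRNAs are shorter than 200 nt and were not measured, but their targets among the members were. The sequences (RefSeq, GRCm38.p6) are shown because members carry matches to the seeds, which are bases 2 to 8 and stand in capitals, and because each family shares 1 seed. They are encoded at chr6:52230129-52230150 on the minus strand inside Hoxa9 (miR-196b), at chr11:96265187-96265208 beside Hoxb9 and chr15:102973365-102973386 inside the annotated Hoxc5 gene (miR-196a), at chr11:96317186-96317208 beside Hoxb4 (miR-10a) and at chr2:74726074-74726096 inside the annotated Hoxd3 and Hoxd4 genes (miR-10b).
miR-196a-5p: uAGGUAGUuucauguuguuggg
miR-196b-5p: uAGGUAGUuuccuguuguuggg
miR-10a-5p: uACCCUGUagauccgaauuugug
miR-10b-5p: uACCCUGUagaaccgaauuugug
A match to the miR-196 seed (ACTACCT) was found in the longest annotated 3′ UTR of 9 of 39 coding members, among them Hoxa7 with 4 matches, Hoxc8 with 2 and, with 1 each, Hoxa4, Hoxa5, Hoxa9, Hoxb1, Hoxb6 and Hoxb7, against 6.10% of 21037 genes with such a UTR. A match to the miR-10 seed (ACAGGGT) was found in 4 of 39, among them Hoxa3, Hoxb3 and Hoxd1, against 12.5% of the genes. The members with a miR-196 match included 2 of the more abundant Hox mRNAs, Hoxa9 and Hoxa7, as well as Hoxb1 at 1 to 3 counts, so they share no common level. A match is a description of letters and not of a site in use.

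Hoxb8 is the classical target of miR-196, which is known to cut its mRNA in mouse embryos. Its 3′ UTR held no exact seed match and instead a site that can pair along the whole of miR-196a, shown here 5′ to 3′ at chr11:96284888-96284909 on the plus strand, with bases in Watson-Crick pairs in capitals and the G:U pair in lower case.
Hoxb8 site: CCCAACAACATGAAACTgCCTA
It pairs at 22 of 22 bases, 21 of them as Watson-Crick pairs. No other of the 21037 genes had a site of at least 20 Watson-Crick pairs, and 239 genes had at least 20 paired bases when G:U pairs were counted. Hoxb8 itself was low in both pools, at 0.31 TPM (interval 0.147 to 0.749) in replicate 1, against 0.30 TPM (interval 0.199 to 0.675) in replicate 2. These levels rest on 9 and 14 counts. Of the nearby HoxB genes, which have no such site, Hoxb9, Hoxb6, Hoxb5 and Hoxb4 were also near or under 1 TPM. The adjoining Hoxb7 had 3.59 TPM in replicate 1, against 2.74 TPM in replicate 2. Hoxb6 and Hoxb7 each hold 1 match to the miR-196 seed. Whether any of these sites bears on the levels was not tested.

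Summed over clusters, group 10 was the most abundant paralogue group with 89.0 TPM in replicate 1, against 105 TPM in replicate 2. Group 13 had 33.6 TPM in replicate 1, against 47.2 TPM in replicate 2, group 9 33.9 and 36.3 TPM, group 11 27.2 and 37.6 TPM, and group 12, which lacks a HoxA gene, 26.1 and 28.4 TPM. Among the lower groups, group 7 had 16.1 TPM in replicate 1, against 14.5 TPM in replicate 2, group 8 had 7.74 and 7.66 TPM, and groups 1 to 6 each stayed under 5 TPM. The clusters did not contribute equally within a group. Hoxa10 exceeded Hoxd10 7.17-fold (log2 2.84 ± 0.06 on TPM + 0.1, SD, n = 2), Hoxa9 exceeded Hoxd9 4.53-fold (log2 2.18 ± 0.11) and Hoxa11 exceeded Hoxd11 3.24-fold (log2 1.70 ± 0.01). In group 13 the order was the other way, with a log2 ratio of Hoxa13 over Hoxd13 of -0.91 ± 0.01. Both group 13 genes were higher in replicate 2, yet their ratio was almost equal in the libraries, at -0.91 in replicate 1 and -0.90 in replicate 2. HoxA exceeded HoxC in every group compared, by 27.0-fold in group 9, 16.4-fold in groups 10 and 11, and 1.76-fold in group 13 (log2 0.81 ± 0.49), where the ratio was the least alike in the libraries (0.47 in replicate 1 and 1.16 in replicate 2). Within HoxD, Hoxd13 exceeded Hoxd10 1.93-fold (log2 0.95 ± 0.29), whereas within HoxA the log2 ratio of Hoxa13 over Hoxa10 was -2.80 ± 0.24.

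**Figure D2:**
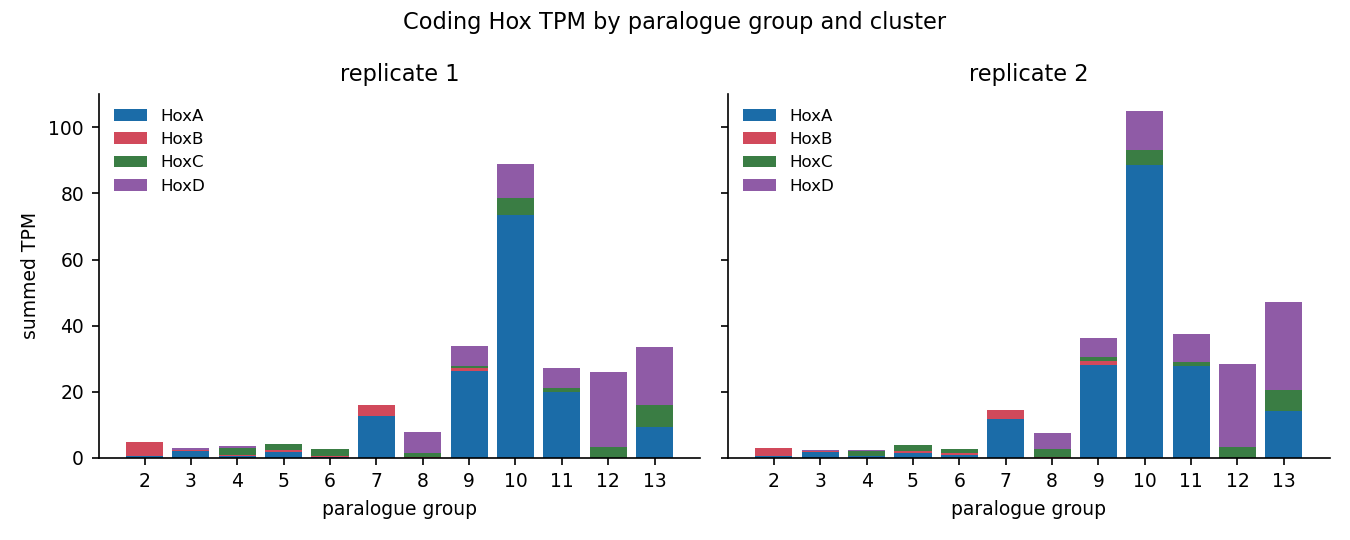
Summed TPM of coding Hox genes in paralogue groups 2 to 13 in replicate 1 (left) and replicate 2 (right), with bars starting at 0 and stacked by cluster. Group 10 is tallest in both libraries and is mostly HoxA, while groups 12 and 13 are mostly HoxD.

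Much of the TPM of Hoxa10 and Hoxd11 was assigned to transcripts other than those annotated as protein-coding. Hoxa10-203, annotated as a processed transcript with no coding sequence (chromosome 6, 52231199 to 52233324), took 64.2% of Hoxa10 TPM in replicate 1 and 61.0% in replicate 2. It lies within the span of the protein-coding Hoxa10-202 (52231197 to 52234939), so the split between them is an estimate. The protein-coding transcripts of Hoxa10 together had 26.1 TPM in replicate 1, against 32.1 TPM in replicate 2, which is 35.9% ± 0.547 of the gene. Of these, Hoxa10-202, whose start is nearer to Hoxa9, had 12.9 TPM in replicate 1, against 17.1 TPM in replicate 2, and Hoxa10-201, which has the more distant start, had 13.2 and 15.0 TPM. Hoxd11 was split in the same way, with 4.28 TPM in replicate 1, against 5.55 TPM in replicate 2 on the processed transcript Hoxd11-201, and a protein-coding share of 31.9% ± 3.94. Its only protein-coding transcript, Hoxd11-202, ends at 74684168 with a 3′ UTR of 30 bases, whereas Hoxd11-201 runs to 74687016. Reads past the end of Hoxd11-202 could therefore be assigned to Hoxd11-201 but not to Hoxd11-202. Hoxa10 and Hoxd11 were the 2 genes with a protein-coding share under 50% among the 12 coding members of at least 5 TPM. Part of Hoxd11 (455 exonic bases) also overlaps Gm28309, a processed transcript on the same strand that had 8.54 TPM in replicate 1, against 6.78 TPM in replicate 2, so reads there could be assigned to either gene.

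The most abundant transcript of Hoxa7 was Hoxa7-205, annotated as a target of nonsense-mediated decay, with 41.5% ± 4.23 of the gene. That of Hoxa9 was the protein-coding Hoxa9-201 with 41.6% ± 2.95, beside Hoxa9-202 (25.1% ± 1.52) and the processed transcript Hoxa9-203 (20.2% ± 4.12). In contrast, the protein-coding Hoxa13-203 held 92.8% ± 2.503 of Hoxa13 and Hoxa11-201 held 99.7% ± 0.486 of Hoxa11, while Hoxd10, Hoxd12 and Hoxd13 have 1 annotated transcript each. Counting protein-coding transcripts alone, the coding Hox genes summed to 181 TPM in replicate 1, against 213 TPM in replicate 2. On this count Hoxa10 had a mean of 29.1 TPM, close to Hoxd12 at 24.0 TPM, Hoxa11 at 23.7 TPM and Hoxd13 at 22.1 TPM. These shares are estimates of how reads were divided among transcripts and not direct counts, and as a share of expected counts, not divided by length, Hoxa9-201 held 68.7%.

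**Figure D3:**
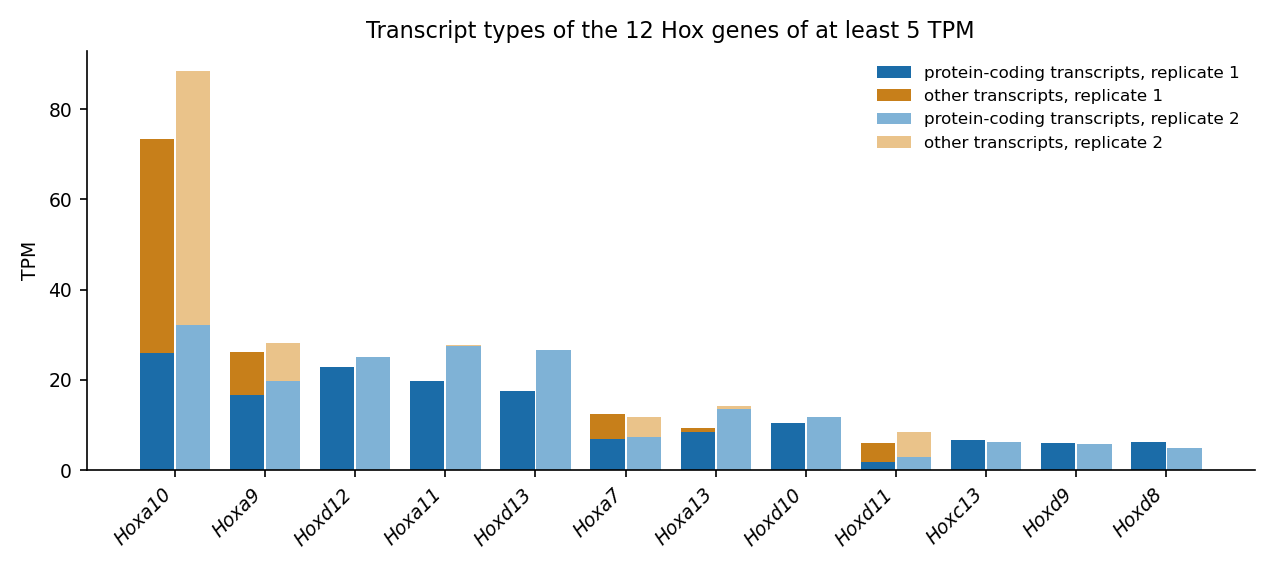
TPM on protein-coding transcripts (blue) and on other transcripts (orange) of the 12 coding Hox genes with a mean of at least 5 TPM, with replicate 1 in dark and replicate 2 in light bars that start at 0. Other transcripts make up most of Hoxa10 and Hoxd11 and are absent or small in the HoxD genes with 1 transcript.

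The most abundant member of all was noncoding. Hoxa11os (ENSMUSG00000086427.4, chromosome 6, 52244393 to 52249799, plus strand) had 133 TPM in replicate 1, against 154 TPM in replicate 2, with deposited intervals of 124 to 135 and 145 to 156, and ranked 1130 among 43346 mouse genes. It is transcribed from the strand opposite Hoxa11, and in mouse limb buds it is known to be made in the distal region where Hoxa11 is absent. It exceeded Hoxa11 6.08-fold (log2 of Hoxa11 over Hoxa11os -2.60 ± 0.19), and with counts not divided by length this log2 ratio was -1.33. The annotated exons of the genes share 800 bases, which is 35.0% of Hoxa11 and 26.0% of Hoxa11os, and whether strand was used in counting is not given in the sources used here. As reads were assigned in the deposited tables, the 4 of 6 Hoxa11os transcripts with no base in a Hoxa11 exon held 93.7% of its TPM in replicate 1 and 97.9% in replicate 2. The largest of these was Hoxa11os-202, an intron-retaining form, with 55.5 TPM in replicate 1, against 61.3 TPM in replicate 2, followed by Hoxa11os-204 with 25.1 and 36.5 TPM. Hoxa11os-201, which does reach into Hoxa11, had 6.90 TPM in replicate 1, against 1.55 TPM in replicate 2. Short RNAs annotated inside Hoxa11os, Gm27543 (43.1 TPM in replicate 1, against 38.9 TPM in replicate 2) and Gm27492 (18.1 and 26.9 TPM), share exonic bases with it, so reads there could be assigned to either.

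Hoxa11 and the transcripts Hoxa11os-203 and Hoxa11os-204 are transcribed away from each other from starts that lie close together, while Hoxa11os-201 and Hoxa11os-206 start inside Hoxa11. The 250 bases before the RefSeq start of Hoxa11 are shown for this reason, at chr6:52245811-52246060 on the minus strand (GRCm38.p6), with capitals for the 158 bases between the Hoxa11 start and the first start of Hoxa11os-204 on the opposite strand.
Hoxa11 upstream: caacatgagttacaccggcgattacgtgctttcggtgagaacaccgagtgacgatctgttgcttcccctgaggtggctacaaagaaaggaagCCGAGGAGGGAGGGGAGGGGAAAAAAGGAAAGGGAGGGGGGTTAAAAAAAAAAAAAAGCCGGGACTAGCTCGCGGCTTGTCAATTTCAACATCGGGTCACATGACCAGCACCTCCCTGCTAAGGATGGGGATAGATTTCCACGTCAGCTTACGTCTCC
The starts of 2 Hoxa11os transcripts, Hoxa11os-204 and Hoxa11os-203, fall in this window, and neither TATAAA nor CCAAT occurs in it on either strand.

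The other noncoding members were far lower. With Hoxa11os, 5 of 9 reached 1 TPM in both libraries, against 34.6% of all mouse genes. Hotairm1, which lies at the 3′ end of HoxA and is known from human myeloid cells, had 6.62 TPM in replicate 1, against 6.35 TPM in replicate 2. Its level rests on short transcripts and on only 34.7 and 55.0 counts. Hoxd3os1 had 4.21 TPM in replicate 1, against 4.81 TPM in replicate 2, above Hoxd3 (log2 of Hoxd3 over Hoxd3os1 -2.93 ± 0.28) and Hoxd4 (log2 of Hoxd4 over Hoxd3os1 -3.26 ± 0.78), but its transcripts free of coding exons held only 10.7% of its TPM in replicate 1 and 14.7% in replicate 2. With counts not divided by length these log2 ratios were -1.17 for Hoxd3 and -2.23 for Hoxd4, and with a pseudocount of 1 TPM they were -1.87 and -1.98. Hottip, which lies beyond Hoxa13 and in human cells helps to keep the 5′ HoxA genes active, had 2.36 TPM in replicate 1, against 3.25 TPM in replicate 2. Hoxa13 exceeded it 4.04-fold (log2 2.01 ± 0.12), and both were higher in replicate 2. Hotair, a HoxC RNA that in human cells binds chromatin repressors, had 0.45 TPM in replicate 1, against 0.65 TPM in replicate 2, against 3.27 and 3.23 TPM for its neighbour Hoxc12.

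Hoxaas3, which spans Hoxa3 to Hoxa7 on the opposite strand, had 1.44 TPM in replicate 1, against 2.18 TPM in replicate 2, on 19.7 and 33.5 counts. Hoxaas2 had 0.77 TPM in replicate 1, against 1.04 TPM in replicate 2. Hoxb3os had 1.04 TPM in replicate 1, against 0.87 TPM in replicate 2, and Hoxb5os had 0.36 and 0.37 TPM on 4 and 5 counts. The Hoxb3os exons share 2250 bases with Hoxb3, which is 52.9% of Hoxb3, so the ratio between them (log2 of Hoxb3 over Hoxb3os -1.77 ± 0.03) depends on how reads were assigned, and it was -0.99 with posterior mean TPM and -0.69 with a pseudocount of 1 TPM. No transcript of Hoxb3os or Hoxaas2 was free of coding exons. Haglr, an antisense RNA of HoxD that the choice of members by symbol does not include, had 0.18 TPM in replicate 1, against 0.37 TPM in replicate 2. Among 741 pairs of coding members, 2 shared an exact run of at least 100 bases, both through overlapping exons, namely Hoxd3 with Hoxd4 and Hoxc5 with Hoxc10, whose levels are therefore uncertain. The longest run in any other pair of coding members was 52 bases, under the read length of 100 that the effective lengths imply. Genes outside the members were not part of this search. Gm28230, on the same strand, shares exonic bases with Hoxd3 (2225 bases, 53.1% of it) and Hoxd4 (1154 bases, 39.1%). Gm28308 does so with Hoxa2 (267 bases, 15.0%) and Hoxa3 (482 bases, 8.01%), so reads there could be assigned to either gene.

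**Figure D4:**
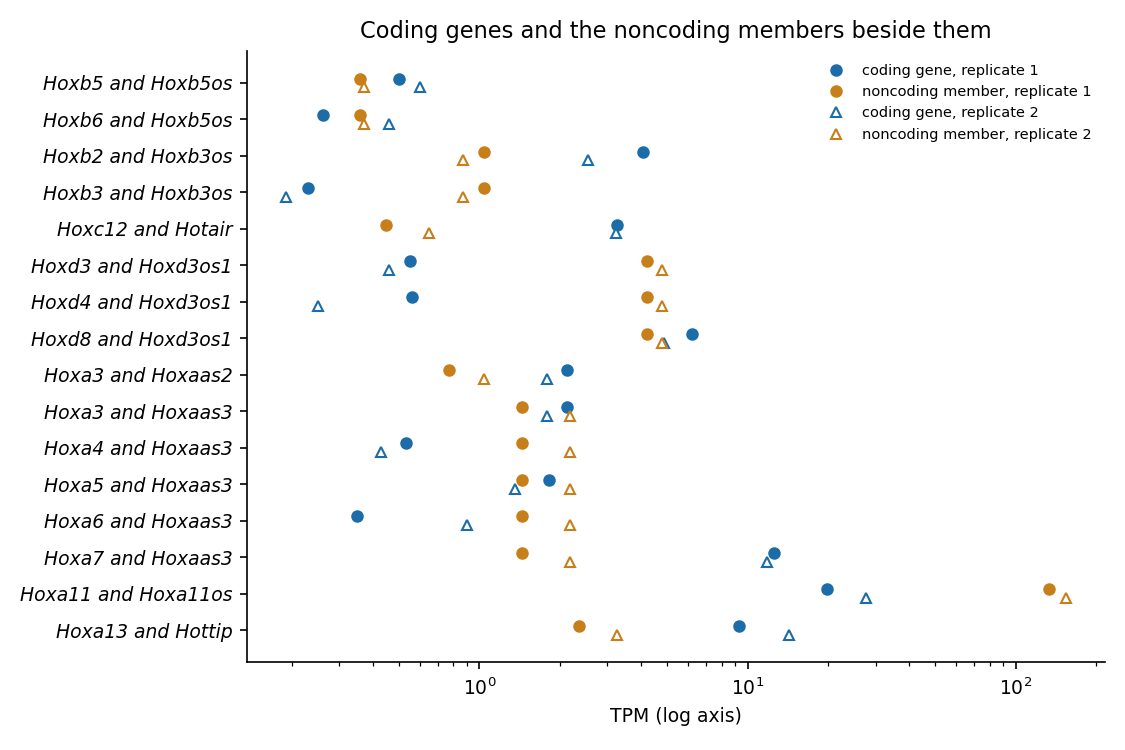
TPM on a log axis of coding Hox genes (blue) and of a noncoding member that overlaps or adjoins each (orange), with circles for replicate 1 and triangles for replicate 2. Hoxa11os stands above every other symbol at 133 and 154 TPM, Hoxd3os1 lies above Hoxd3 and Hoxd4, and Hottip and Hotair lie below Hoxa13 and Hoxc12.

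Between the pools, the 5′ genes tended to be higher in replicate 2 and the 3′ genes higher in replicate 1. Differences are log2 of replicate 1 over replicate 2 on TPM + 0.1, centred on the median gene, for the 28 members with a mean of at least 1 TPM. Past 1.5-fold in either direction lay 6 of these 28 members, against 8% of the 15571 genes at that level, and past 2-fold 0 members, against 3.63%. The deposited intervals did not overlap for 9 of the 28 members, against 23.2% of genes, with 2 members higher in replicate 1 (13.6% of genes) and 7 higher in replicate 2 (9.63% of genes). Higher in replicate 1 by over 1.5-fold were Hoxb2 (log2 0.65) and Hoxc4 (log2 0.60), which is 2 members against 4.87% of genes. Higher in replicate 2 by over 1.5-fold were Hoxc8 (log2 -0.97), Hoxa13 (log2 -0.64), Hoxd13 (log2 -0.62) and Hoxaas3 (log2 -0.59), which is 4 members against 3.12% of genes. Without centring, Hoxaas3 was at -0.57 and inside 1.5-fold, and its intervals overlapped.

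The split by position covered most of the coding genes. Of the 13 coding genes of groups 9 to 13 at this level, 10 were higher in replicate 2, with a median log2 of -0.17. Of the 10 of groups 1 to 8, 9 were higher in replicate 1, with a median log2 of 0.33, and the exception was Hoxc8. The median over all genes was 0 by the centring. The sign changed with the scaling for Hoxc12, Hoxc5 and Hotairm1 and for no other of the 28 members. With 1 library for each pool, these values describe the libraries and not a stage or a limb type.

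Other tissue markers also differed between the pools, and their part in the Hox difference was not tested. All 4 muscle markers were higher in replicate 1 by over 1.5-fold, with summed levels of 3370 TPM in replicate 1, against 1010 TPM in replicate 2. The limb mesenchyme markers summed to 357 TPM in replicate 1, against 386 TPM in replicate 2. After centring on the median gene, 6 of 8 were higher in replicate 2 and 2 in replicate 1. The 6 include Shox2, which before centring had 28.2 TPM in replicate 1, against 27.9 TPM in replicate 2. Msx1 was higher in replicate 1 (130.7 TPM, against 112.6 TPM in replicate 2). Cartilage markers summed to 777 TPM in replicate 1, against 824 TPM in replicate 2, and epidermis markers to 2801 and 2646 TPM. Among limb type genes, the forelimb gene Tbx5 was higher in replicate 1 (16.0 TPM, against 12.02 TPM in replicate 2) and the hindlimb genes Tbx4 (12.6 TPM in replicate 1, against 18.0 TPM in replicate 2) and Pitx1 (19.1 and 30.8 TPM) were higher in replicate 2. The markers of trunk organs summed to 7.05 TPM in replicate 1, against 32.1 TPM in replicate 2, with Nkx2-1 at 0 in both libraries. Most of this came from the liver genes Afp (3.41 TPM in replicate 1, against 21.5 TPM in replicate 2) and Alb (2.14 and 10.3 TPM), while the heart gene Myh6 was higher in replicate 1 (1.31 TPM, against 0.16 TPM in replicate 2) with intervals apart. Kidney markers summed to 4.24 TPM in replicate 1, against 3.94 TPM in replicate 2. Most of this was Six2 (3.33 and 3.50 TPM), with Wt1 at 0.90 and 0.42 TPM and Pax2 at 0.01 and 0.02 TPM. Neural markers summed to 0.62 and 0.54 TPM with Sox1 and Neurog2 at 0.

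**Figure D5:**
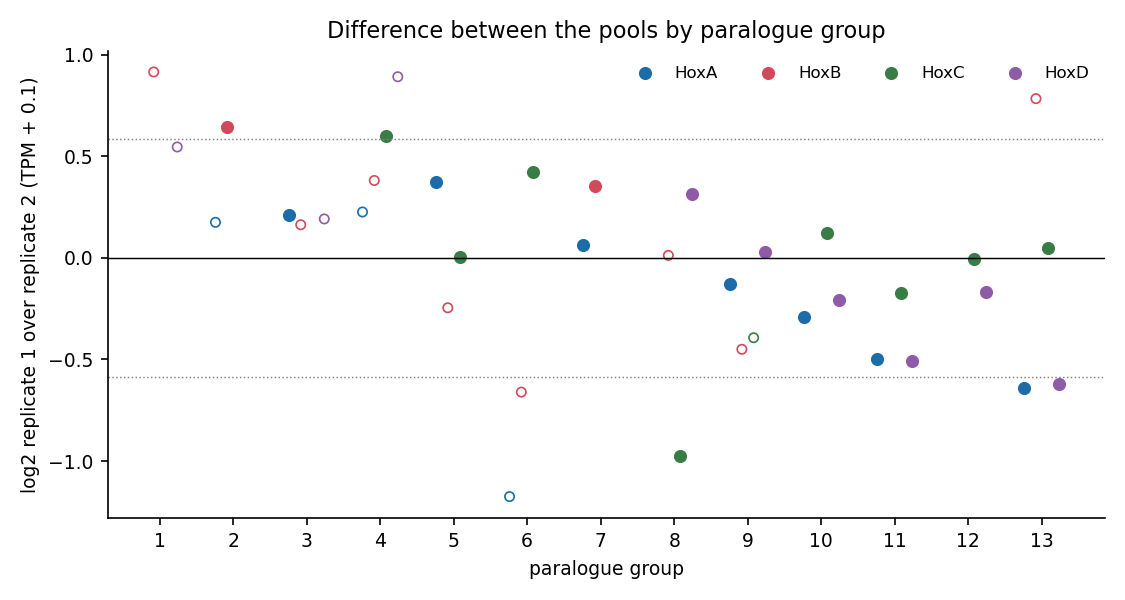
Log2 difference of the coding Hox genes named in the text, replicate 1 over replicate 2, by paralogue group and coloured by cluster, with filled points for genes of at least 1 TPM on average, open points for lower genes and dotted lines at 1.5-fold. Filled points of groups 2 to 7 lie at or above 0, those of groups 10 to 13 mostly below it, and Hoxc8 is the lowest filled point at -0.97.

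The 250 bases before the RefSeq starts of Hoxa13 and Hoxd13 are shown (GRCm38.p6), with CCAAT and TATAAA on either strand in capitals. Both genes were higher in replicate 2 by over 1.5-fold. Hoxa11 (log2 -0.50) and Hoxd11 (log2 -0.51) were also higher there, whereas Hoxc13 was not (log2 0.05). Whether these sequences bear on the difference between the pools was not tested. The window of Hoxa13 lies at chr6:52260881-52261130 on the minus strand and that of Hoxd13 at chr2:74667975-74668224 on the plus strand.
Hoxa13 upstream: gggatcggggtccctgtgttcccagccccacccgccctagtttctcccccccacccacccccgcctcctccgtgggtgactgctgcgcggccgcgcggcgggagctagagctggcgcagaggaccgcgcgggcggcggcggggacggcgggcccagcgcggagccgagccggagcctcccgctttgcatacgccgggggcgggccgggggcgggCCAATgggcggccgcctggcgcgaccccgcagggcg
Hoxd13 upstream: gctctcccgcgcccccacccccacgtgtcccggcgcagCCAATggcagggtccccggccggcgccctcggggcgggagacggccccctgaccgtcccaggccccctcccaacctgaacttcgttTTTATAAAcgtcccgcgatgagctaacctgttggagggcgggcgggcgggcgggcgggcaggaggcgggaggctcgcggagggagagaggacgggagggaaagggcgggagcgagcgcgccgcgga
Both windows hold CCAAT, and that of Hoxd13 also holds TATAAA with its reverse complement overlapping it. Among 24 windows of the 22 coding members that had one, 14 hold CCAAT on either strand, against 33.8% of all 32851 windows, and 4 hold TATAAA, against 12.4%. Both windows are rich in G and C, with 80.0% in Hoxa13 and 74.4% in Hoxd13.

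The partners of Hox proteins on DNA were all present in the limb. Of the 9 PBC and MEIS family cofactors, 9 reached 1 TPM in both libraries and 0 differed by 1.5-fold. Pknox1 was the highest with 24.2 TPM in replicate 1, against 23.2 TPM in replicate 2. Meis1, which marks the proximal limb, had 14.5 TPM in replicate 1, against 13.5 TPM in replicate 2, and Meis2 had 11.6 and 14.1 TPM. The lowest was Pbx4, with 3.63 TPM in replicate 1, against 3.84 TPM in replicate 2.

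Genes that flank the clusters averaged 0.32 to 78.5 TPM. Beyond HoxD, the mitochondrial import gene Mtx2 had 78.4 TPM in replicate 1, against 76.0 TPM in replicate 2, and Lnpk, whose region holds limb enhancers of HoxD, had 26.9 and 25.9 TPM. The homeobox gene Evx2, which adjoins Hoxd13 and is active in digits, had 0.81 TPM in replicate 1, against 1.20 TPM in replicate 2. Evx1, beyond Hoxa13, had 0.16 TPM in replicate 1, against 0.48 TPM in replicate 2. Skap2 beside HoxA had 16.6 TPM in replicate 1, against 15.0 TPM in replicate 2, and Skap1 beside HoxB had 1.55 and 2.23 TPM. Cbx5 beside HoxC had 77.4 TPM in replicate 1, against 79.6 TPM in replicate 2. Of the 9 flanking genes, 0 of the 8 with a mean of at least 1 TPM differed by 1.5-fold. The related homeobox genes Cdx1, Cdx2, Cdx4, Gsx1, Gsx2, Pdx1 and Mnx1 were all under 1 TPM, and 5 of these 7 were at 0 in both libraries.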

How the data were processed

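Total RNA of 2 pools of embryonic limb was analysed from tables per gene and per transcript. Per the file headers the deposited values are expected counts, TPM, FPKM (fragments per kilobase scaled to library size), posterior means and interval bounds, which are scores here, and the percent of each gene held by each transcript. The records deposited with each sample name GENCODE M4 as annotation and the labels name mm10 as assembly. The aligner and counting program are, in the sources used here, not given. The intervals that the authors deposited cover counting and assignment of reads and not differences between embryos, belong to the posterior mean and need not hold the TPM itself, and amplified reads are not independent molecules.

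Gene symbols and positions were taken from GENCODE M21 (GRCm38), matched by identifier for 42462 of 43346 genes and for 113 of 113 transcripts of members. Sums, shares and log2 ratios (pseudocount 0.1 TPM) were computed in each library with Python 3.11.15, numpy 2.4.6 and pandas 2.3.3, and are given as mean ± SD. Differences between pools were centred on the median of 15571 genes with a mean of at least 1 TPM and were not tested. As an alternative, expected counts were rounded and scaled by TMM in edgeR 4.0.16. The fold step was tested on simulated data. miRNA and upstream sequences came from RefSeq, and the longest 3′ UTR of each gene from GENCODE M21 transcripts.

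Every member is named except for an item not reported here, with the most abundant transcript of each coding member of at least 10 TPM, the members past 1.5-fold, and listed cofactors, neighbours, related and limb type genes. Hoxd11, Haglr, Gm28309 and the short RNAs inside Hoxa11os were added to the transcript results after their values were seen. Members and lists were chosen with earlier results of these data known.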

Additional observations from a re-analysis of the deposited data

How the results depend on the processing

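With counts not divided by length, HoxA held 55.4% and HoxD 33.3% of the coding Hox sum, and groups 9 to 13 held 90.9% of HoxA, 16.5% of HoxB and 71.2% of HoxC, which was 69.1% with posterior mean TPM. Past 1.5-fold between pools lay 3 members with a pseudocount of 1 TPM, 11 with no filter on low values and 2 with a mean of at least 5 TPM, and past 2-fold 1 member with no filter (Hoxa6). At a threshold of 5 TPM, 11 of 39 coding members were counted in both libraries, against 26.0% of all mouse genes. As shares of counts, Hoxa10-203 held 58.9%, Hoxa13-203 97.8%, Hoxa9-201 68.7% and Hoxa7-205 60.9%. The direction of a log2 ratio turned in 6 values. Hoxb5 over Hoxb5os went from a main value of 0.48 to -0.86 with posterior mean TPM. Hoxb6 over Hoxb5os went from -0.05 to 1.00 with counts and 0.25 without replicate 1, but kept its sign without replicate 2 (-0.35). Hoxa3 over Hoxaas3 went from 0.13 to -0.27 without replicate 1, but kept its sign without replicate 2 (0.53). Hoxa5 over Hoxaas3 went from -0.16 to 1.30 with counts and 0.32 without replicate 2, but kept its sign without replicate 1 (-0.64). The cause was not tested, except that TPM divides by length and counts do not. Of the recomputed main values 70 stayed within their spread or within 1.5 times a count and 15 did not, and for single genes and ratios these were 310 and 65, with 6 turned. No paired analysis was possible because there is 1 group. Depth limits the 11 members with fewer than 20 counts, whose levels and ratios are rough.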
